A study of Mus musculus with 14 samples.

Results

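The E14 H3K27ac peaks that lay beside a transcription start site (TSS) without being centred on it were examined. They were chosen by position alone, as peaks whose midpoint lay more than 1000 and at most 5000 bp from the nearest GENCODE vM1 transcript TSS on either side, on mm9 chromosomes 1 to 19. The rule found 646 peaks, hereafter the flanking peaks, out of 13463 in the whole list and 13079 on these chromosomes. They are compared with the 10090 peaks within 1000 bp of a TSS (promoter-centred) and the 2343 peaks beyond 5000 bp (distal).

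The study profiled retinal progenitor cells and Lhx2 conditional knock-out retinas at E14 (embryonic day) and P2 (postnatal day) by RNA-Seq, ATAC-Seq and ChIP-Seq, and of its 14 samples in the labels only the E14 H3K27ac ChIP-Seq is analysed here. Its labels give CD1 mice at E14 and name retinal progenitor cells, with no genotype or treatment of its own, whereas the methods describe whole dissected retinas, so the signal can come from any cell of the retina. Chromatin was immunoprecipitated with an antibody to histone H3 acetylated at lysine 27 from 2 replicate libraries, and 1 isotype control library served as background. The authors pooled the replicates before peaks were called, so a peak carries a single value and no replicate error, and no p-value is given for any difference between sets of peaks. Intervals are 95% intervals that cover counting error only and treat neighbouring peaks as independent. The call used 113543038 ChIP tags and 9210563 control tags after redundant tags were removed. A peak covered a TSS of all 8 retinal progenitor markers chosen for this check, among them Rax, Pax6, Six3, Six6, Lhx2 and Sox2, and of 3 of 5 ganglion cell markers. It covered a TSS of 0 of 21 markers of lens, pigment epithelium, endothelium, microglia, erythroid, muscle and liver cells. Of all protein-coding genes on chromosomes 1 to 19, 45% had a peak on a TSS.

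Acetylation of lysine 27 of histone H3 is deposited by the co-activators CBP and p300 and marks the nucleosomes around active promoters and enhancers. A residue that is acetylated cannot also carry the methylation that marks Polycomb repression. Around an active promoter the acetylated nucleosomes often spread into the first intron, and enhancers can also lie within a few kilobases of the promoter, so that a peak in this interval may belong to either kind of element or to a start site that the annotation does not list. In the retina, LHX2 is a LIM homeodomain factor required in progenitors, Notch signalling through HES1 and HES5 keeps progenitors undifferentiated, and RORB is a nuclear receptor of developing retinal cells.

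Sequences of 2 kinds of flanking peak are shown, to set peaks that hold a RefSeq start beside peaks at retinal genes for which no RefSeq start was matched. The first are stretches of mm9 in which the 50 bases around a RefSeq start, given in capitals, matched the RefSeq promoter table (build GRCm38.p6) exactly. They are read 5′ to 3′ on the minus strand, from 95 bases before the start. Ndst2 lies at chr14:21553760-21553879, Zfp445 at chr9:122775100-122775219 and Zfp780b at chr7:28764152-28764271.
Ndst2: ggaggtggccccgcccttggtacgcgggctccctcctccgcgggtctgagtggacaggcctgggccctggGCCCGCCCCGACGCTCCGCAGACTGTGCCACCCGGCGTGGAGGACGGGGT
Zfp445: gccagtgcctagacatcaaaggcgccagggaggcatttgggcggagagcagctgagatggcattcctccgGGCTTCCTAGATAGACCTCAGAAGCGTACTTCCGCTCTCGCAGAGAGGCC
Zfp780b: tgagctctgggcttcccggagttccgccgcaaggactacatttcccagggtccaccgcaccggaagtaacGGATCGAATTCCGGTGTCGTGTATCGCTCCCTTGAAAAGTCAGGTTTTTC

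The second are the 300 bases around the midpoint of flanking peaks at retinal genes, on the plus strand of mm9. Capitals mark matches, on either strand, to 6 short motifs: TAATTA (the LHX2 core), CAGCTG (an E-box), ACAATG (SOX), GGGCGG (a GC-box), CCAAT and GGATTA (the OTX/CRX core). Matches may share end bases. The Lhx2 windows lie in introns, upstream and downstream of the nearest Lhx2 TSSs, at chr2:38203470-38203769 and chr2:38211702-38212001. Those of Dtx1 and Rorb lie at chr5:121149103-121149402 and chr19:19183207-19183506.
Lhx2 upstream: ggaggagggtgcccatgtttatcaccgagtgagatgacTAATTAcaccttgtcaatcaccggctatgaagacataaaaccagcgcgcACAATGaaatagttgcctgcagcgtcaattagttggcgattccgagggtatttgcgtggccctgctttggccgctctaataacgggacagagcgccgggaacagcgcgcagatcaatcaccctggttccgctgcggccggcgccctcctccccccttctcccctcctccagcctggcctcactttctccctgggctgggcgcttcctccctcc
Lhx2 downstream: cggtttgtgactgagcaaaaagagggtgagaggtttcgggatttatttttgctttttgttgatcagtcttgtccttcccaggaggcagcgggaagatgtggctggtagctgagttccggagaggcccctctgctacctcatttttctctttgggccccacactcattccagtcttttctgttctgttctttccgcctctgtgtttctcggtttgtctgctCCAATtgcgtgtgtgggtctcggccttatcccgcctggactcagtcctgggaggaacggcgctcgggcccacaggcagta
Dtx1 upstream: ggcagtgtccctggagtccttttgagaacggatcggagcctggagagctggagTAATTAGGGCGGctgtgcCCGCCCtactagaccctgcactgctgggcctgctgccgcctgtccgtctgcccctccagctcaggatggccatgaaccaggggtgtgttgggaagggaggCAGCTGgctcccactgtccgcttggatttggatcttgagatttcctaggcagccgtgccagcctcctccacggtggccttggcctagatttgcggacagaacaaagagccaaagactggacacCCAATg
Rorb downstream: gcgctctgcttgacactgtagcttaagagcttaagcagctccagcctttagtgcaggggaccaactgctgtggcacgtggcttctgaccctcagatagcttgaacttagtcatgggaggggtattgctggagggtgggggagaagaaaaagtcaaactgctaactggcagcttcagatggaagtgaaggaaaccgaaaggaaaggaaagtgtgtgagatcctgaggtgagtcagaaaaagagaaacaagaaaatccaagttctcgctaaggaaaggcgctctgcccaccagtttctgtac
The upstream Lhx2 window held TAATTA and ACAATG, the downstream window held only CCAAT, and the Rorb window held none of the 6. The Dtx1 window held the LHX2 core, an E-box, GC-boxes and a CCAAT box. Over the 44 flanking peaks at genes of the retinal, signalling and cell cycle lists, TAATTA was present in 4 windows, ACAATG in 4, CAGCTG in 11, CCAAT in 8, GGGCGG in 15 and GGATTA in 0, so the windows shown are not typical in holding the LHX2 core. A match describes the letters in these windows and is not a measured binding site.

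The first question was how peak density changed with distance from a TSS. Each peak was counted at its midpoint, so acetylation that a longer peak carried to other distances was not counted there. Flanking peaks were sparse compared with promoter-centred ones. The sequence 1000 to 5000 bp from a TSS, 294.6 Mb, held 2.19 peaks per Mb (2.03 to 2.37), against 101.2 per Mb within 1000 bp and 1.13 per Mb (1.08 to 1.17) beyond 5000 bp. The interval from 1 to 2 kb held 238 flanking peaks, that from 2 to 3 kb 166, that from 3 to 4 kb 117 and that from 4 to 5 kb 125. Downstream of the TSS, the density was 3.34 per Mb from 1 to 2 kb (2.81 to 3.93), 2.04 from 2 to 3 kb, 1.63 from 3 to 4 kb and 1.77 from 4 to 5 kb. Upstream, it was 2.30 from 1 to 2 kb (1.85 to 2.81), 2.33 from 2 to 3 kb (1.87 to 2.88), 1.72 from 3 to 4 kb and 2.12 from 4 to 5 kb. The value from 1 to 2 kb downstream was the highest of the 8. Its interval (2.813 to 3.927) lay just above that from 1 to 2 kb upstream (1.855 to 2.809) but overlapped that from 2 to 3 kb upstream. From 1 to 2 kb on both sides, 67 of the 238 peaks were long ones that covered their own TSS, and 51 of the 73 such peaks at all distances lay downstream. The lower bounds of all 8 intervals lay above the density beyond 5000 bp.

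**Figure D1:**
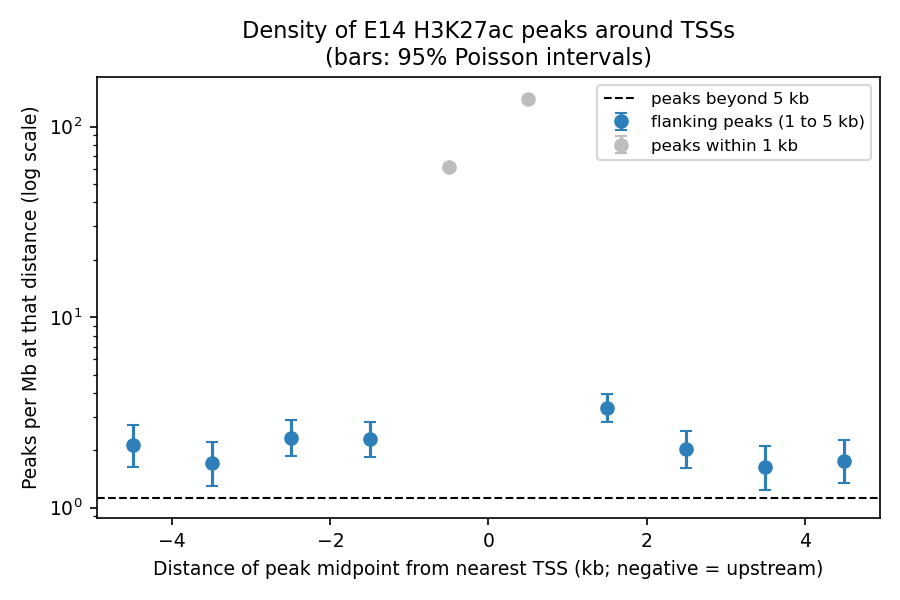
Peaks per Mb of sequence (log scale) against the distance of the peak midpoint from the nearest TSS in kb, negative upstream, with 95% Poisson intervals as bars. The blue points, the flanking peaks, run from 1.63 to 3.34 per Mb, between the grey points of promoter-centred peaks and the dashed line of distal peaks at 1.13 per Mb.

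By the strand of the nearest TSS, 304 flanking peaks lay upstream and 342 downstream. The upstream share was 47.1% (exact binomial interval 43.2 to 51.0%), and upstream sequence made up 48.4% of the bases at these distances. Over the whole set, the excess of downstream peaks was thus within counting error. Upstream made up 94 of the 238 peaks from 1 to 2 kb, or 39.5% (33.2 to 46.0%). The sequence there was 41.0 Mb upstream and 43.2 Mb downstream, and the density intervals of both sides, given above, did not overlap. From 4 to 5 kb, upstream made up 66 of the 125, or 52.8% (43.7 to 61.8%). The whole-set result did not hold for peaks with a q up to 0.001 and a fold enrichment from 4 upwards. Among these, the upstream share was 41.6% (35.5 to 47.9%) of 257 peaks, below 48.4%. With 1 TSS per gene in place of all transcript TSSs, it was 33.6% (30.5 to 36.8%) of 875 peaks, for which the share of upstream bases was not computed. Measured from the nearest edge of the peak in place of its midpoint, it was 52.6% (48.2 to 56.9%) of 527 peaks, the opposite direction. The flanking peaks had 613 different nearest genes and 632 nearest TSSs. The nearest gene was protein-coding for 513, a lincRNA for 25 and a miRNA for 21.

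The midpoint lay in an intron for 321 flanking peaks, or 49.7% (45.8 to 53.6%), and outside all transcripts for 213, or 33.0% (29.4 to 36.7%). Coding exons held 68, exons of non-coding transcripts 21, 3′ UTRs 19 and 5′ UTRs 4. Downstream peaks were intronic in 204 of 342 cases and in coding exons in 59. Upstream peaks were intergenic in 163 of 304 cases and intronic in 117, the latter within a longer transcript or another gene. Median fold enrichment was 3.87 (3.76 to 3.95) in introns, 3.93 (3.75 to 4.05) in intergenic sequence and 4.05 (3.85 to 4.23) in coding exons, with overlapping intervals.

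The second question was whether the TSS itself carried a peak. It did for 166 flanking peaks, or 25.7% (22.4 to 29.2%), against 75.2% of all peaks on these chromosomes. In 73 of these cases the flanking peak was long enough to cover the TSS itself, and in 93 another peak covered it. No peak covered the TSS for the other 480, or 74.3% (70.8 to 77.6%). Among distal peaks, of which 0 of 2343 covered their own TSS, the share with a peak on the TSS was 28.3% (26.5 to 30.2%). Without the 73 that covered their own TSS, the share of flanking peaks with another peak on it was 16.2% (13.3 to 19.5%) of 573. The 25.7% counts peaks that reach their own TSS, which distal peaks did not, and the 16.2% removes them by this same outcome, so no order between flanking and distal peaks is read from these shares. A peak on the TSS was present for 23.4% of upstream (18.7 to 28.5%) and 27.8% of downstream peaks (23.1 to 32.9%), with overlapping intervals. A flanking peak that covered its own TSS was found for 22 of 304 upstream and 51 of 342 downstream peaks. With TSSs of protein-coding transcripts alone, the share with a peak on the TSS was 35.2% of 534 peaks, and counting a peak midpoint within 1000 bp of the TSS in place of a peak covering it gave 17.2%.

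Peaks that covered their own TSS were the long ones. Their median length was 3599 bp, against 879 bp where another peak covered the TSS and 855 bp where none did, and 67 of the 73 had midpoints from 1 to 2 kb. The length is tied to this class by construction, since a peak with its midpoint over 1000 bp away must exceed 2000 bp to reach the TSS. Their median fold enrichment, averaged by the caller over the whole region, was 4.51 (4.25 to 4.88), against 3.81 (3.64 to 4.03) and 3.84 (3.75 to 3.92). The longest flanking peak, 10874 bp on chromosome 3 from 17684415 to 17695288, covered the TSS of Gm10742, from which its midpoint lay 2953 bp upstream, and its fold enrichment was 4.93. The peak at the lincRNA 4930578M01Rik measured 8502 bp (fold enrichment 3.93), that at Zfp219 6886 bp (5.26), that at Pea15a 6272 bp (4.54) and that at Zic2 6167 bp (5.17). All of these 5 longest peaks covered their TSS.

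**Figure D2:**
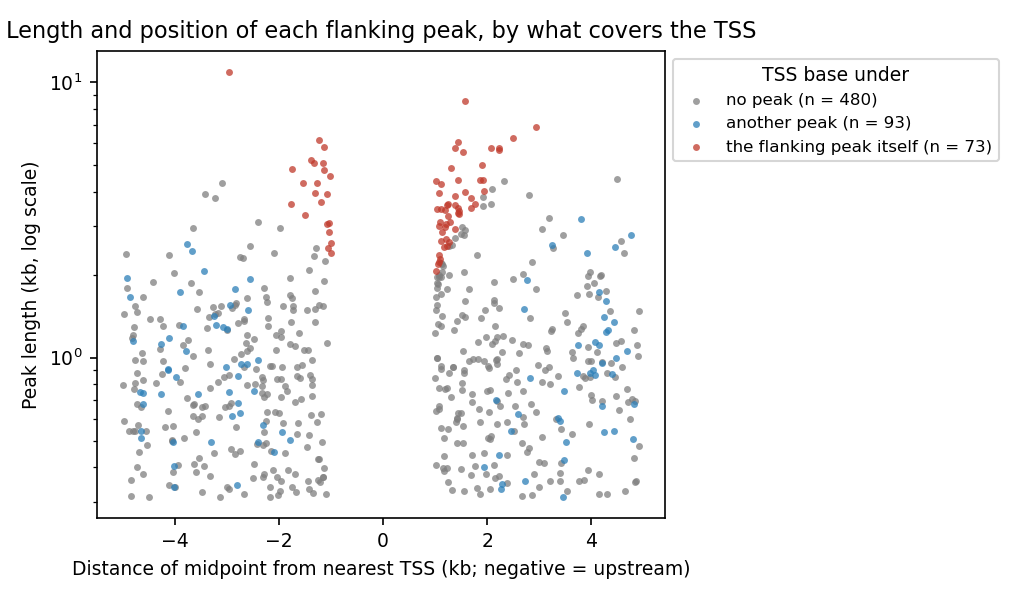
Length of each of the 646 flanking peaks in kb (log scale) against the distance of its midpoint from the nearest TSS in kb, negative upstream, coloured by what covers the TSS base. The 73 peaks that cover their own TSS (red) form the long edge next to the gap, 51 of them downstream.

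Where a separate peak covered the TSS, it was usually the stronger of the pair. The flanking peak had the lower fold enrichment in 68 of 93 pairs, or 73.1% (62.9 to 81.8%), and was the shorter in 64. The median fold enrichment was 3.81 (3.64 to 4.03) for the flanking peaks and 4.51 (4.15 to 4.76) for the peaks on the TSS, and the median difference within pairs was -0.65 (-0.85 to -0.27). Some flanking peaks share a TSS peak, so the pairs are not all independent. The pair were separated by a median of 2229 bp (range 1288 to 4354 bp). The broad call joins close regions, and the smallest gap to any other peak was 1288 bp for flanking and 1263 bp for distal peaks, so shorter separations cannot be seen in this list. Another peak lay within 5000 bp of 212 of the 646 flanking peaks.

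**Figure D3:**
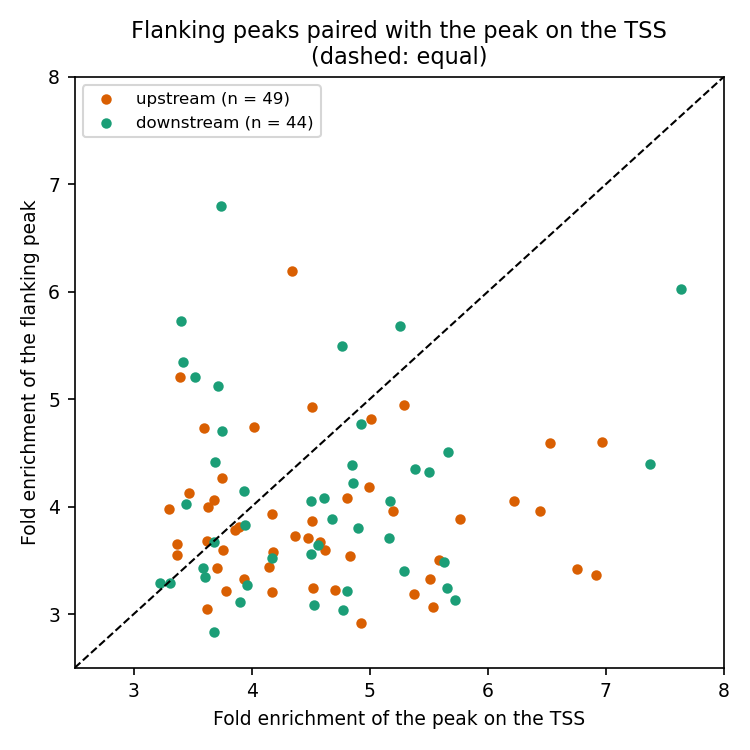
Fold enrichment of the flanking peak against that of the separate peak on its nearest TSS, for 49 upstream and 44 downstream pairs, with the dashed line marking equal values. Of the 93 points, 68 lie below the line.

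The flanking peaks had lower fold enrichments than promoter-centred peaks taken as a whole and were close to distal ones. Their fold enrichment ran from 2.79 to 8.62 with a median of 3.91 (3.83 to 3.98), against 4.71 (4.68 to 4.74) within 1000 bp and 3.78 (3.76 to 3.81) beyond 5000 bp. The median pileup was 11.3, against 16.4 and 9.72, and the median length 946.5 bp, against 1071 and 801 bp. The stricter limits that the methods name for high-confidence peaks, a q up to 0.001 and a fold enrichment from 4 upwards, were met by 257 flanking peaks, or 39.8% (36.0 to 43.7%), below the 64.1% of all peaks. They were met by 29.4% of distal peaks. Without the 73 peaks that covered their TSS, the median fold enrichment was 3.83 (3.75 to 3.91), an interval that overlapped that of distal peaks. The 1090 promoter-centred peaks that did not cover their nearest TSS had a median of 3.95 (3.91 to 4.02). Missing a TSS this near limits the length of these peaks, whose median was 523 bp. Their median pileup was 13.7, against 10.7 for the 573 flanking peaks that did not cover their TSS. What sets these peaks apart from the 4.71 of all promoter-centred peaks was not tested. Upstream and downstream peaks had medians of 3.82 (3.74 to 3.92) and 3.99 (3.90 to 4.07), and the limits were met by 35.2% and 43.9% of them. By distance, the median was 4.05 from 1 to 2 kb (3.92 to 4.14), 3.74 from 2 to 3 kb, 3.86 from 3 to 4 kb and 3.85 from 4 to 5 kb. Across the 646 peaks, fold enrichment had a Spearman rho of -0.11 with the distance and 0.31 with the length, a description over peaks of 1 library pool.

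Peaks just inside the nearer limit, over 1000 to 1200 bp, numbered 74 with a median fold enrichment of 4.13, and those just outside, over 800 to 1000 bp, numbered 131 with 4.45. At the farther limit, 63 peaks over 4500 to 5000 bp had a median of 3.77, and 59 peaks over 5000 to 5500 bp had 3.71.

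Base composition of the flanking peaks lay between those of the other sets. The 300 bp around the midpoint had a median GC content of 56.3% (55.7 to 57.7%), against 67.3% in promoter-centred and 53.7% in distal peaks (53.3 to 54.0%). A CpG-rich window, with a GC content of at least 50% and an observed over expected CpG ratio of at least 0.6, was found in 33.6% of flanking peaks (30.0 to 37.4%), against 81.8% and 19.9%. Median GC content was 57.7% (56.3 to 59.0%) where no peak covered the TSS and 51.0% (48.0 to 55.0%) where the flanking peak itself did. In coding exons the median was 65.8% (64.0 to 67.3%), and in introns 54.3% (53.3 to 55.7%).

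**Figure D4:**
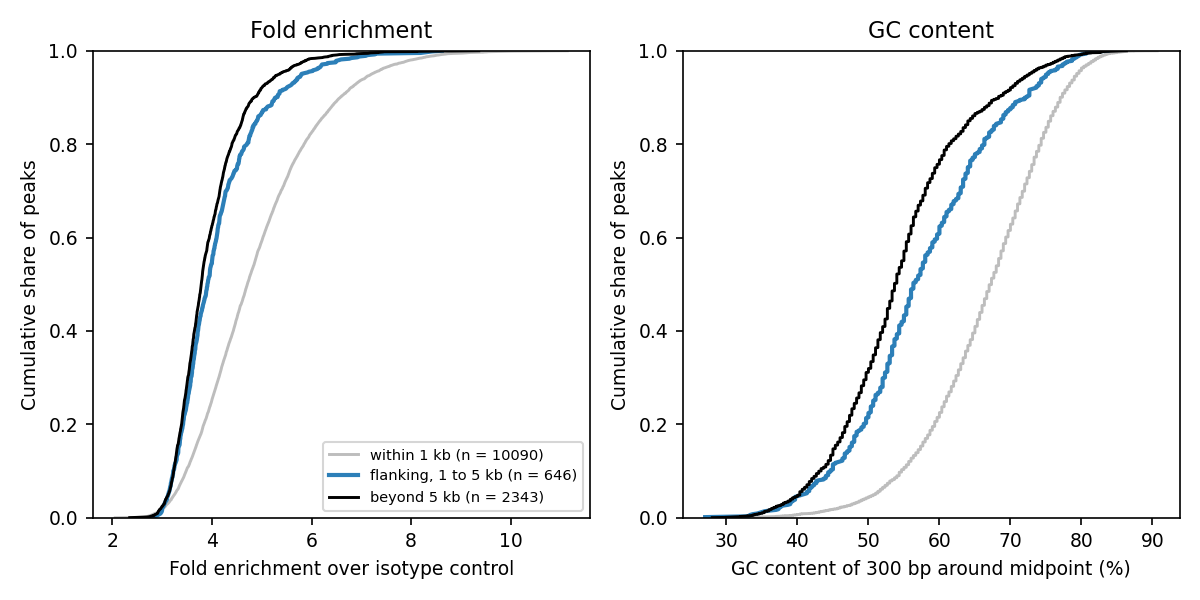
Cumulative share of peaks by fold enrichment over the isotype control (left) and by GC content in % of the 300 bp around the midpoint (right), for 10090 promoter-centred, 646 flanking and 2343 distal peaks. The curve of flanking peaks (blue) runs near that of distal peaks for fold enrichment, with medians of 3.91 and 3.78, and between the others for GC content.

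Of the short motifs, TAATTA was present in 4.95% of flanking windows (3.41 to 6.92%), 1.12% of promoter-centred, 5.63% of distal and 2.12% of all peak windows, and in 5.29% of all RefSeq promoters of the same length. CAGCTG was present in 24.5% of flanking windows (21.2 to 28.0%), against 23.7% of distal (22.0 to 25.5%) and 17.6% of all peak windows and 16.3% of RefSeq promoters. ACAATG was present in 12.4% (9.94 to 15.2%), against 15.7%, 7.48% and 12.6%. GGATTA was present in 5.88%, against 7.51%, 4.12% and 7.06%. GGGCGG was present in 33.7% (30.1 to 37.5%), above the 25.4% of distal windows (23.6 to 27.2%) and below the 63.4% of promoter-centred windows. It was present in 55.1% of all peak windows and in 35.7% of RefSeq promoters. CCAAT was present in 26.2% (22.8 to 29.7%), against 27.1% of distal and 23.0% of all peak windows and 37.4% of RefSeq promoters. GC content differs between these sets, and its part in the motif shares was not tested.

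Some flanking peaks held start sites that RefSeq lists. A RefSeq start lay inside 104 of the 646 flanking peaks, or 16.1% (13.3 to 19.2%), against 50.8% of all peaks and 7.60% (6.56 to 8.75%) of distal peaks. Of these 104, 46 were among the 73 long peaks that covered their own vM1 TSS. Among the 573 that did not cover it, 58 held a RefSeq start, or 10.1% (7.78 to 12.9%), an interval that overlapped that of distal peaks. Among the 480 with no peak on the TSS, 51 held such a start, or 10.6% (8.01 to 13.7%). Their median fold enrichment was 4.15 (3.91 to 4.54), against 3.79 (3.72 to 3.90) for the 429 without. Their GC content was 63.0% (61.0 to 70.7%), against 57.0% (56.0 to 58.0%), and 78.4% of them were CpG-rich, against 31.5%. Ndst2, which encodes a heparan sulfate sulfotransferase, had a flanking peak on chromosome 14 from 21552920 to 21553931, 3659 bp upstream of its vM1 TSS, whose fold enrichment was 8.19. The RefSeq start shown above lies 4018 bp from that TSS. The peaks at the zinc finger genes Zfp780b (fold enrichment 6.55) and Zfp445 (6.49) likewise held RefSeq starts 4372 and 3878 bp from the vM1 TSS. At Baz2a, a chromatin remodelling subunit, a peak of 2362 bp in an intron held a RefSeq start and had a fold enrichment of 7.27. The RefSeq table does not hold every start of a gene, so the 429 may include further ones.

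Of the same 480, 121 had another TSS of the same gene under another peak, and 27 had a peak midpoint within 1000 bp of the TSS that did not reach it. For 300, or 62.5% (58.0 to 66.8%), none of these 3 descriptions applied.

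The highest fold enrichment of all flanking peaks, 8.62, was on chromosome 8 from 86706856 to 86708314, 4718 bp upstream of the microRNA gene Mir181c, in intergenic sequence with a GC content of 74.7%. That at Sft2d3 followed with 8.41, on chromosome 18 from 32070025 to 32071024 in a coding exon. The peak at the nuclear pore gene Nup160 had 8.31, on chromosome 2 from 90518877 to 90520183, 2158 bp downstream of the TSS in a 5′ UTR. No peak covered the nearest TSS of these 3, and none held a RefSeq start. The peak nearest to Mos, an oocyte kinase gene, had 7.27, and that nearest to the snoRNA AC102570.1 had 7.12 with a GC content of only 38.7%. The fifth highest upstream value was 6.59, nearest to A930004D18Rik in an exon of a non-coding transcript. The peaks at Chd3, a helicase of the NuRD complex (7.09), and at Ptprs, a receptor tyrosine phosphatase (6.95), covered their own TSS and extended downstream into an intron.

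The next question was which genes the flanking peaks lay next to. In all, 482 of 21281 protein-coding genes, or 2.26%, were the nearest gene of a flanking peak. Among retinal progenitor transcription factors this was 11 of 38, or 28.9% (15.4 to 45.9%). It was 7 of 31 for the Notch pathway (22.6%, interval 9.59 to 41.1%), 6 of 30 for neurogenic and fate factors (20%, 7.71 to 38.6%), and 7 of 44 for ganglion cell and early neuron genes (15.9%, 6.64 to 30.1%). Signalling genes of the Fgf, Hedgehog, Wnt and Bmp pathways had 4 of 53 (7.55%, 2.09 to 18.2%) and cell cycle genes 3 of 42 (7.14%), and the 95% intervals of both include the 2.26%. Ribosomal protein genes had 1 of 62, Rpl12, although 60 of the 62 had a peak on a TSS. None of the 20 markers of other cell types on these chromosomes had a flanking peak or a peak on a TSS. A peak on a TSS was present for 27 of the 38 progenitor factors, 21 of the 31 Notch genes, 34 of the 42 cell cycle genes, 43 of the 53 signalling genes, 20 of the 44 ganglion cell and early neuron genes and 11 of the 30 neurogenic and fate factors, against 45% of protein-coding genes. Per Mb of sequence 1000 to 5000 bp from their own TSSs, progenitor factors had 42.2 flanking peaks, neurogenic factors 23.8, Notch genes 20.3, ganglion cell genes 14.6, cell cycle genes 10.8, signalling genes 6.56 and ribosomal protein genes 3.47, against 2.40 for all protein-coding genes. The ribosomal values rest on 1 peak, and the interval of its share of genes, 1.61% (0.0408 to 8.66%), includes the 2.26%. The lists were written by hand with earlier results of these peaks known, so these counts describe the lists and are not a test.

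**Figure D5:**
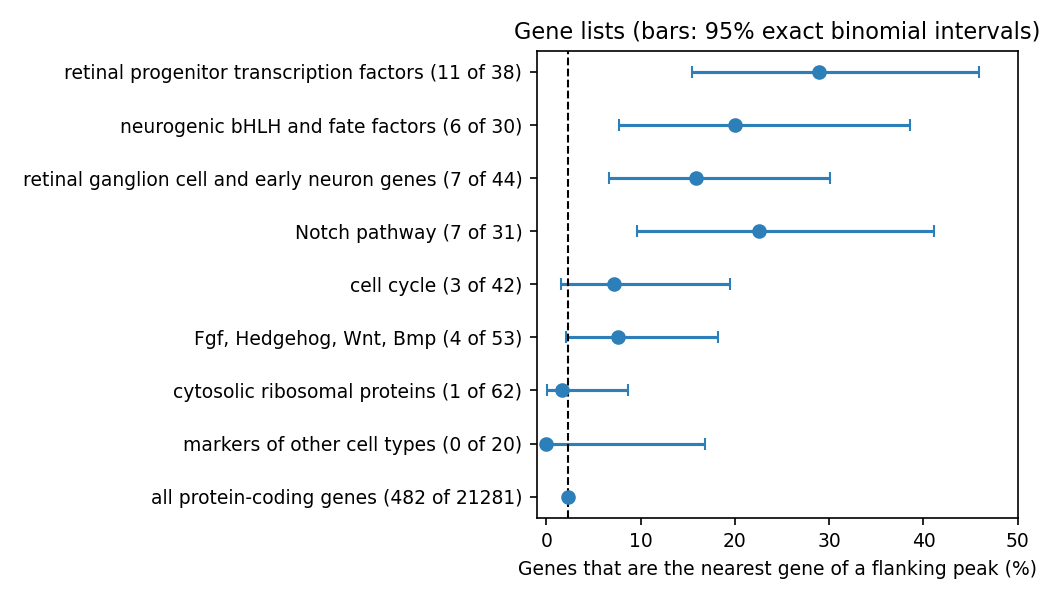
Percent of the genes of each list that are the nearest gene of a flanking peak, with 95% exact binomial intervals as bars, and all protein-coding genes as the dashed line at 2.26%. The point for retinal progenitor transcription factors is at 28.9%, and that for ribosomal proteins is at 1.61%.

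The 6 retinal, signalling and cell cycle lists held 44 flanking peaks at 38 genes, with fold enrichments from 3.14 to 5.77 and a median of 3.99. A peak covered the nearest TSS for 23, or 52.3%, of which 8 were the flanking peak itself and 15 another peak, beside 25.7% of all 646 flanking peaks. The stricter limits were met by 20, or 45.5%, near the 39.8% of all flanking peaks, and 14 of the 44 lay upstream, beside 47.1% of all.

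Lhx2 was flanked on both sides of the peak on its TSS, which had a fold enrichment of 5.29. The upstream peak, on chromosome 2 from 38202965 to 38204273, had a fold enrichment of 4.95 and lay 3209 bp from the TSS, inside an intron of longer Lhx2 transcripts. The downstream peak, from 38210257 to 38213445, was longer (3189 bp) and weaker (3.41), 3799 bp from its nearest Lhx2 TSS. Zic2, a zinc finger gene of early eye patterning, had the long peak on its TSS and another flanking peak 4144 bp downstream (fold enrichment 4.05), and the neighbouring Zic5 had a peak of 3619 bp in an intron with 4.85. The peak in an intron of Rorb spanned 4381 bp (chr19:19181166-19185546) and had a value of 4.77, with no peak on the nearest TSS. Casz1, a zinc finger factor of retinal progenitors, had 3 downstream flanking peaks with values of 3.33, 3.63 and 3.76. Each lay next to a different TSS of the gene and none had a peak on that TSS, while another Casz1 TSS was under another peak. Id2 and Id3, inhibitors of bHLH factors, each had a flanking peak (4.26 and 3.83) beside a separate peak on the TSS. Nr2e1, Nr2f1 and Sall1, nuclear receptor and zinc finger genes, had values of 3.62, 4.48 and 3.72.

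In the Notch pathway, the effector Hes1 had the highest value. Its peak, downstream of the TSS and beyond the transcript, had a fold enrichment of 5.49, above the 4.76 of the peak on the TSS. The reverse order was found at Hes5, where the flanking peak 2484 bp upstream had 3.50 and the peak on the TSS 5.59, and at the ligand gene Dll1, with 3.93 and 4.18. The peak of the co-activator gene Maml3 (5.25) covered its own TSS. Those of the receptor gene Notch1 (4.07), the ligase gene Dtx1 (3.88) and the glycosyltransferase gene Lfng (4.15) lay by a TSS with no peak. At Lfng, another peak had its midpoint within 1000 bp of that TSS without covering it.

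Among fate factors, Prdm13, a regulator of amacrine cells, had a flanking peak of 446 bp with 5.02, 2844 bp upstream of a TSS with no peak. The horizontal cell factor Prox1 had 4.19 and the neurogenic factor Insm1 4.08, both upstream and both below the peak on the TSS (4.99 and 4.80). Insm2, Barhl2 (3.43) and Onecut2 (3.44) had lower values. Of the early neuron genes, Sox11 had a peak of 5750 bp that covered its TSS, with 5.36, and Elavl3, an RNA-binding protein of neurons, had 5.32, 1070 bp downstream of a TSS with no peak. Ebf3 was flanked on both sides at 3.21 upstream and 3.52 downstream, below the 4.17 of the peak on its TSS. Mapt, Nhlh2, Stmn2 and Myt1 ran from 4.11 down to 3.14, all by a TSS with no peak. At Mapt and Myt1, another TSS of the gene was under another peak. The receptor gene Fgfr1 had the highest value of the 44, 5.77, in an intron 1336 bp downstream of a TSS with no peak, while another TSS of the gene was under a peak. Dkk3, Cdon and the Fgf antagonist Spred2 had 4.22, 3.44 and 3.42, and at Spred2 the peak on the TSS had 6.75. The cell cycle genes were Ccnd3 (4.74, covering its TSS), Aurkb (3.55) and the cyclin-dependent kinase inhibitor gene Cdkn1c, flanked at 4.35 downstream and 3.46 upstream of a TSS with no peak.

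Of the 613 nearest genes, 27 had 2 flanking peaks and 3 had 3. Besides Casz1, these were Frmd4a, with values of 3.70, 3.79 and 4.12 next to different TSSs, and Kdm6b, which encodes a demethylase of lysine 27 of histone H3. The Kdm6b peaks lay on chromosome 11 on both sides of 1 TSS, with 5.36 at 3196 bp downstream, 4.11 at 1969 bp upstream and 4.11 at 4924 bp upstream, and no peak covered that TSS.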

How the data were processed

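Per the file header and the labels, the authors aligned E14 H3K27ac ChIP-Seq reads to mm9 with Bowtie2, pooled 2 replicates and ran MACS 2.1.0.20140616 in its broad mode, with 1 isotype control as background (broad cutoff 0.1, q cutoff 0.05, 1 tag per position, larger library scaled to the smaller). Where the methods give other settings, those in the header were taken. The deposited pileup is a signal averaged over the region, the deposited fold enrichment is a ratio to the local background, and the deposited −log10 p-value and q-value are averages over the region. The other samples were not analysed here.

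Midpoints were assigned to the nearest GENCODE vM1 transcript TSS, protein-coding genes first in ties. The reference carries mm9 (NCBI 37) sequence, and 0 peaks ran past a chromosome end. A peak was on a TSS when it covered that base. Sequence was read in 300 bp around each midpoint, and RefSeq starts were located by an exact match of 50 bp. Shares have exact Clopper-Pearson intervals, medians have order-statistic intervals and densities have Poisson intervals, all at 95%. Peaks are not replicates, so no test across peaks was made, and the precision is limited by the pooled depth and the shallower control. The assignment was tested on simulated data.

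Peaks were named by rule: the 5 highest fold enrichments upstream, downstream and with no peak on the TSS, the 5 longest, genes with 3 or more, and those at genes of the 6 retinal, signalling and cell cycle lists. The values of 1 gene under this rule and 1 sequence are not reported here. Rpl12, Zfp780b and Zfp445 were named after their values were seen. The set and the lists were chosen with earlier results of these data known. Alternatives were other TSS sets, joined peaks, the sex chromosomes, stricter limits, the nearest edge in place of the midpoint, another definition of a peak on the TSS, the whole peak for GC content, and leaving out peaks that cover the TSS. Scripts ran in Python 3.11.15 with pysam 0.24.0, pandas 2.3.3, scipy 1.17.1, matplotlib 3.10.9 and numpy 2.4.6.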

Additional observations from a re-analysis of the deposited data

How the results depend on the processing

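Of 30 alternative values, 15 stayed within the interval of the reported value (or within 1.5 times a count), of which 2, from joining peaks closer than 1000 bp, could not change because no flanking peak has another that near. The number of flanking peaks was 527 to 875 except under the stricter limits on fold enrichment and q, which left 257 by construction. With TSSs of protein-coding transcripts, the share with a peak on the TSS was 35.2%, the median fold enrichment 4.03 and the median GC content 58.3%. With 1 TSS per gene, the upstream share was 33.6% and the median fold enrichment 4.14. Measured from the nearest edge, the upstream share was 52.6% and the median fold enrichment 3.80. Under the stricter limits, the upstream share was 41.6% and the share with a peak on the TSS 29.6%. A peak midpoint within 1000 bp of the TSS gave 17.2%. Leaving out peaks that covered their TSS gave a median fold enrichment of 3.83 and a share of 16.2%, lower by construction, and leaving out those with a RefSeq start gave 3.83 and 20.8%. The choice of TSS set changed which peaks qualified, with 437 of the 534 peaks under protein-coding TSSs and 489 of the 875 under 1 TSS per gene also in the reported set. The cause of the other shifts was not tested. Joining peaks closer than 2000 bp, leaving out RefSeq starts, and the share without peaks that covered their TSS were chosen after seeing the data. No paired analysis was possible because the replicates were pooled in 1 peak list. The control had 9210563 tags against 113543038, which limits the precision of fold enrichment.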
